A study of Rattus norvegicus with 12 samples.

Results

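Kidneys of rats treated with bromodichloromethane (BDCM) were compared between 2 experiments, one in which the animals were killed under isoflurane and one in which they were killed under a CO2-O2 gas mixture. The comparison rests on 6 of the 12 arrays of the series: 3 treated rats of the isoflurane experiment and 3 treated rats of the CO2-O2 experiment, chosen by their titles alone. All 6 were male Sprague-Dawley rats bought at 5 weeks of age and given BDCM at 200 mg/kg per day for 4 weeks. The rats were bled under the gas named 24 h after the last dose, and the renal cortex of each gave 1 array. How BDCM was given, and in what vehicle, the labels do not say. The other 6 arrays are rats given corn oil for 4 weeks, 3 in each experiment, and serve here only as a reference for what separated the experiments without BDCM. Anaesthetic, experiment, slide and scan day change together between the groups, so none of them can be told apart from the others. The comparison therefore describes 2 experiments with the same treatment, and "higher with isoflurane" below names the experiment, not the gas.

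BDCM is a trihalomethane formed when chlorine reacts with organic matter and bromide in water, and rodent kidney converts it to reactive products that injure the proximal tubule. Renal cortex consists mostly of proximal tubule, the segment that reclaims glucose, phosphate, amino acids and bicarbonate from the filtrate. Inhaled CO2 acidifies the blood and drives breathing, while isoflurane is a volatile anaesthetic that acts on GABA-A receptors and two-pore potassium channels. Both are inhaled shortly before death, whereas the treatment lasts for weeks.

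Signals are given on a log2 scale, as the processed spot signal of a probe relative to its array's 75th percentile, so that a difference of 1 is a 2-fold change. A gene was called where limma's test of the difference gave a Benjamini and Hochberg adjusted p under 0.05 over all 34218 features tested, 12208 of them genes with a symbol and the rest probes without one. The spread came from all 12 arrays. The median SD within a group was 0.166 in both treated groups, 0.114 in oil CO2-O2 and 0.126 in oil isoflurane animals. The shared spread can therefore understate the error of the treated comparison and overstate that of the oil comparison. Between 67.4 and 72.5% of probes were well above background on each array, and 0 to 6 probes per array were saturated. Arrays correlated at 0.988 to 0.991 within each treated group and at 0.981 to 0.987 across them, over features that are not independent. The negative control spots spread more widely on the 6 isoflurane arrays (SD of 3.12 to 4.27 intensity units) than on the 6 CO2-O2 arrays (2.11 to 2.78), and the part of this in the calls was not tested. No slide or scan held arrays of both experiments. With slides numbered 1 to 5, slide 1 held all oil CO2-O2 arrays and treated CO2-O2 animal 2. Slide 2 held treated CO2-O2 animals 1 and 3. Slide 3 held oil isoflurane animals 1 and 2. Slide 4 held oil isoflurane animal 3 and treated isoflurane animals 1 and 2, and slide 5 treated isoflurane animal 3. The treated and oil comparisons thus rest on partly different slides. All 53 proximal tubule markers tested were well above background on all 6 arrays. The same held for all 22 podocyte and glomerular and all 23 endothelial markers tested. Only probes above background in some group were tested, so this does not identify the tissue. Each group has 3 arrays, which bounds the precision, and the submitters describe the animals as biological replicates.

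Treated kidneys of the 2 experiments differed in many transcripts by small amounts. Of the 12208 named genes, 1672 (13.7%) were called, 913 higher with isoflurane (7.48%) and 759 lower (6.22%). The median absolute difference of the called genes was 0.45 on the log2 scale, and 60 were at least 2-fold higher and 75 at least 2-fold lower. Over all features 5847 (17.1%) were called, 69.2% of them higher with isoflurane (11.8% of features higher and 5.25% lower), and of the 22010 probes without a symbol 19.0% were called. That split depended on the scaling: 56% of calls were higher after quantile normalization and 43.6% after median scaling. With the 6 treated arrays fitted alone, 973 features were called, and 197 of the 1672 named genes kept their call. Without CO2-O2 animal 3 the count of features fell to 3635, and without isoflurane animal 1 to 3800. Leaving out each of the 12 animals in turn left 677 of the 1672 (40.5%) called every time. Of the 128 called genes that the naming rule picked, 41 kept their call without each animal. Where a gene described below lost it, the animals or their number are given for many genes, but not for all. Among those not marked in full, Col3a1 lost it without 10 of the 12 animals, Gla and Pfkfb2 without 8, and Mmp14 and Eno2 without 6. Acaca and Hmgcs1 lost it without 5, Cdh5, Flt1, Mvk and Pdk2 without 4, Rps27a and Tfeb without 3, and Rpl36a without 2. Among the 128, 16 stayed called in the fit of the 6 treated arrays: Ahi1, Akr1c14, Apoc1, Car12, Hsf2, Il12rb1, Klk12, Mmp1, Or4k5, Or4x5, Or51f4, Rbfox1, Serping1, Sgpp2, Trpm8 and Ugt2b1. The other 112 lost it there. Of the 16, Il12rb1 and Ugt2b1 were tested only because the treated group where they are high was above background. Trpm8 was not well above background on any of the 6 treated arrays, so it has no fold here.

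Ahi1, which encodes a protein of the ciliary transition zone, had the lowest adjusted p of the genes named. Its signals were -0.57, -0.74 and -0.53 in the 3 CO2-O2 animals and 0.86, 0.83 and 0.90 in the 3 isoflurane animals. The groups were far apart, with a difference of 1.48 ± 0.09 (SE, n = 3 against 3), or 2.78-fold, and an adjusted p of 0.000272. A second Ahi1 probe was also called, at 0.55. Car12, a membrane carbonic anhydrase of tubule cells, read -0.76, -0.60 and -0.97 with CO2-O2 and 0.35, -0.05 and 0.08 with isoflurane. Again the groups did not overlap, and the difference was 0.90 ± 0.12 (adjusted p = 0.00212). Non-overlap alone says little here, because it held for 30.0% of all named genes.

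Hsf2, a heat shock transcription factor, was the firmest gene in the other direction. Its signal was 0.65 in each of the 3 CO2-O2 animals and -0.13, -0.26 and -0.06 in the isoflurane animals. It fell by 0.80 on the log2 scale (SE 0.09, adjusted p = 0.00138), and a second probe that read -0.40 was not called. Serping1, the inhibitor of complement C1, read 5.01, 5.24 and 5.06 with CO2-O2 and 4.33, 4.37 and 4.49 with isoflurane. The lowest CO2-O2 animal was above the highest isoflurane animal, and the gene fell by 0.70 (SE 0.09, adjusted p = 0.00186), as did both of its other probes.

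**Figure D1:**
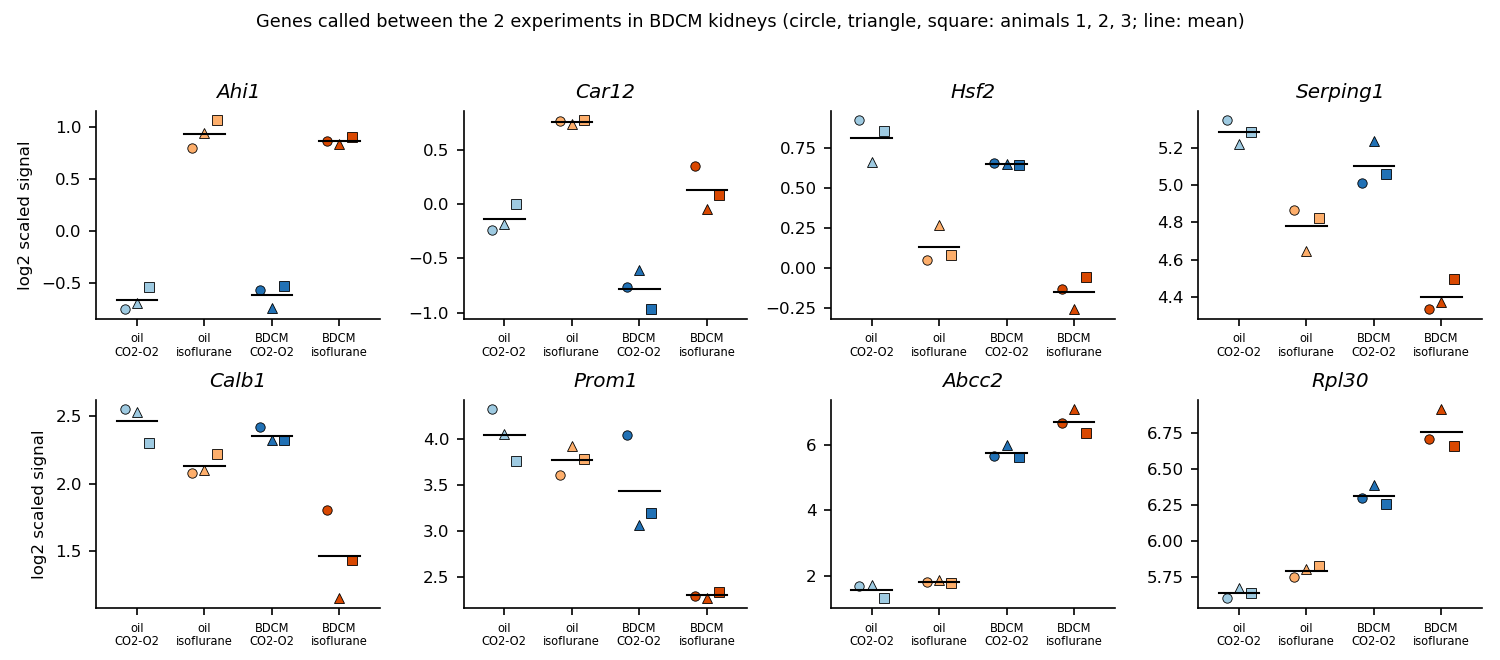
Log2 scaled signal of 8 genes in each of the 12 animals, by group, with animals 1, 2 and 3 as circle, triangle and square and the group mean as a line. Ahi1, Car12, Hsf2 and Serping1 show a like shift in oil and BDCM animals, while Calb1, Prom1, Abcc2 and Rpl30 have a larger one in the BDCM animals (difference of shifts from 0.29 to 0.86 in size, none called after adjustment).

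Several of the largest positive differences were in genes read near background. Klk12, a kallikrein-related protease, read -5.91, -6.35 and -5.82 with CO2-O2, where 2 of 3 arrays were above background, and -4.15, -4.01 and -4.12 with isoflurane. It rose by 1.94 ± 0.20 (adjusted p = 0.00106). Rbfox1, a splicing factor of neurons and muscle, rose by 2.32 ± 0.36 (adjusted p = 0.00377), with 1 of 3 CO2-O2 arrays above background. Mmp1, an interstitial collagenase, rose by 1.60 ± 0.25 (adjusted p = 0.00362), with 2 of 3 CO2-O2 arrays above background, but was not called with the mean of its probes. Il12rb1, a chain of the interleukin 12 receptor, read -7.39, -8.10 and -6.63 with CO2-O2, below background on all 3 arrays, and -4.36, -4.07 and -2.77 with isoflurane, above it on all 3. Measured against the lowest signal above background on each array, Il12rb1 was at least 5.84-fold higher (adjusted p of the measured signals, not of this bound, = 0.00144). Il12rb1 entered the test only through the treated isoflurane arrays, where it is high, so that p is not independent of the filter. The olfactory receptor gene Or4x5 was at least 2.66-fold higher by the same bound (adjusted p of the measured signals = 0.000881). Sgpp2, a phosphatase of sphingosine 1-phosphate, rose by 2.26 ± 0.32 from means of -6.16 to -3.90 (adjusted p = 0.0024), with 2 of 3 CO2-O2 arrays above background.

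Olfactory receptors, which sense odorants in the nose, were looked at as a family after their values had been seen. Of 1169 on the array, 271 were tested, 53 were called higher with isoflurane (19.6%, against 7.48% of named genes) and 2 lower. Of the 271, 162 were above background on all 6 treated arrays, and 36 of these were called higher. The median difference of the 271 was 0.31, and it was 0.19 after quantile normalization and 0.22 after median scaling. Of the 271, 175 lay in the dimmest of 5 equal bins of features, where the median difference over all features was 0.18. In that bin 11.8% of all features were called higher and 2.37% lower, so the 7.48% of named genes is not a share at like signal. In oil animals 43 were called higher and 4 lower.

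**Figure D2:**
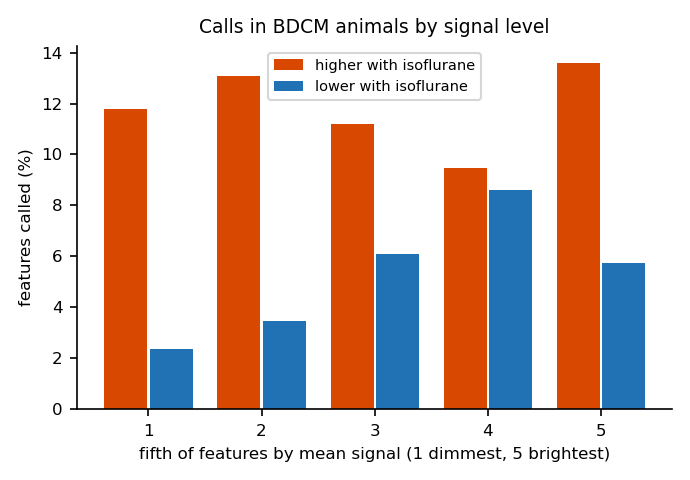
Percentage of features called higher (orange) and lower (blue) with isoflurane in BDCM animals, in 5 equal bins of all features by mean signal. Calls of lower signal made up 2.37% of the dimmest bin and 8.62% of the second brightest, while calls of higher signal lay between 9.45 and 13.6% throughout.

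Transcripts made mainly by hepatocytes had the largest negative differences. Of 30 hepatocyte markers tested, 10 were lower with isoflurane and 1 higher (Plg, plasminogen), or 36.7% called, against 13.7% of named genes. Their median difference was -1.52, against 0.01 for all named genes. The median was -1.58 after quantile normalization and -1.61 after median scaling. The count moved with single animals: 2 members were called lower without CO2-O2 animal 2 or 3, 3 without isoflurane animal 2 or 3, and 5 without CO2-O2 animal 1. The summed signal of the list ran from 89.0 to 99.4 with CO2-O2 and from 68.66 to 91.98 with isoflurane (in units of the array's 75th percentile). That sum is carried by Serpinc1 and Tf, which stood high in every animal, and 18 of the 30 were above background on all 6 arrays.

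Apoc1, an apolipoprotein of plasma lipoproteins, kept its call without each animal. It read -1.69, -0.91 and -1.10 with CO2-O2 and -3.07, -4.36 and -5.09 with isoflurane. It fell by 2.94 on the log2 scale (SE 0.62), or 7.69-fold, with an adjusted p of 0.0120. Albumin (Alb), the main plasma protein, read 0.60, 1.19 and 1.49 with CO2-O2 and -0.69, -5.79 and -8.07 with isoflurane, where 1 of 3 arrays was above background. The groups did not overlap, but isoflurane animal 1 lay closer to the CO2-O2 animals than to isoflurane animals 2 and 3. Both other Alb probes were called, at -4.11 and -3.86. The difference was -5.94 ± 1.63 (adjusted p = 0.0336), and the call ended without CO2-O2 animal 1, 2 or 3 or isoflurane animal 2 or 3 (adjusted p from 0.0645 to 0.0900).

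In Fabp1, a fatty acid binding protein abundant in liver, isoflurane animal 1 was again the highest of its group. It read -0.93, -0.38 and -0.13 with CO2-O2 and -1.80, -4.64 and -4.34 with isoflurane, and fell by 3.11 (SE 0.79, adjusted p = 0.0255). Its call ended without CO2-O2 animal 2 or 3 or isoflurane animal 2 or 3 (0.0576 to 0.0773). Itih4, a plasma inhibitor family protein, read -2.46, -1.51 and -1.59 with CO2-O2 and -3.10, -4.81 and -5.10 with isoflurane. Here too isoflurane animal 1 was highest of its group, and it fell by 2.48 (adjusted p = 0.0367), a call lost without any of the 3 CO2-O2 animals, isoflurane animals 2 or 3, or oil animal 1 of either experiment (0.0507 to 0.10). The other genes among the 15 largest negative differences included Rup2, Mug1, Itih3, Cyp2c7, Cyp2c13 and Serpina1, with differences from -5.40 to -2.61, each of them lost without at least 4 of the 12 animals. Mug1, the Cyp2c genes and the major urinary protein gene Mup4l1 belong to families of close copies, between which a probe may not distinguish. How far liver RNA in the dissected tissue enters these values was not tested.

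To show the sequence upstream of such genes, the 200 bases before the annotated start of 4 of them are printed 5′ to 3′ on the gene's strand, from RefSeq on rat assembly GRCr8. Capitals mark GTTAAT or its reverse complement ATTAAC, the half-site of the motif bound by hepatocyte nuclear factor 1, which drives many liver genes. Alb lies at chr14:17906980-17907179 (minus strand), Apoc1 at chr1:88478306-88478505 (minus), Fabp1 at chr4:104749140-104749339 (plus) and Itih4 at chr16:6086785-6086984 (plus).
Alb: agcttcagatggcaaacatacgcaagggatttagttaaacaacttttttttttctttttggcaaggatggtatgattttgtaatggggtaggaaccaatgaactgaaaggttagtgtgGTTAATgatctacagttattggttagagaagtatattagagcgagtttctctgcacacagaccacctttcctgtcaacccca
Apoc1: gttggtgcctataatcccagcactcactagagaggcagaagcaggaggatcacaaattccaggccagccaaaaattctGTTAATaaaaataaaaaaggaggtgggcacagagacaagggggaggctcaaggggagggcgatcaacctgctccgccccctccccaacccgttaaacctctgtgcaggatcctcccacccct
Fabp1: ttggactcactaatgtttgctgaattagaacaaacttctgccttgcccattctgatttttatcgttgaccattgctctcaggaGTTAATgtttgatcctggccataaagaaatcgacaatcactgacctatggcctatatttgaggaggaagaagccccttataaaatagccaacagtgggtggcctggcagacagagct
Itih4: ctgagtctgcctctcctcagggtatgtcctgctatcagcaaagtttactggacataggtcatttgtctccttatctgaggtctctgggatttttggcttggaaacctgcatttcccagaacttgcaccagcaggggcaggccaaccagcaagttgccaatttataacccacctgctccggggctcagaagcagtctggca
The half-site begins 82 bases before the start in Alb, 122 in Apoc1 and 117 in Fabp1, and is not in this window of Itih4. Searched on both strands in windows of the same length, it was in 1713 of 33469 promoters (5.12%) and in 7 of the 24 tested hepatocyte markers with a promoter in the table (29.2%). Among the 7 of these called lower, 1 held it (14.3%). The matches are a description of sequence, and the arrays measured no binding.

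Ugt2b1, a glucuronosyltransferase of liver and kidney, behaved otherwise. It read -6.36, -4.85 and -5.63 with CO2-O2, above background on all 3 arrays, and -7.75, -8.00 and -8.31 with isoflurane, below it on all 3. The measured signals did not overlap, with means of -5.61 and -8.02 (adjusted p of the measured signals = 0.00212, limma). By the bound, which that p does not test, the gene was at least 1.15-fold lower with isoflurane. Ugt2b1 entered the test only through the treated CO2-O2 arrays, where it is high, so that p is not independent of the filter. CO2-O2 animal 1 lay below the lowest signal above background of each isoflurane array (-5.63, -5.77 and -6.06). In oil animals the means were -8.62 with CO2-O2 and -8.18 with isoflurane.

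**Figure D3:**
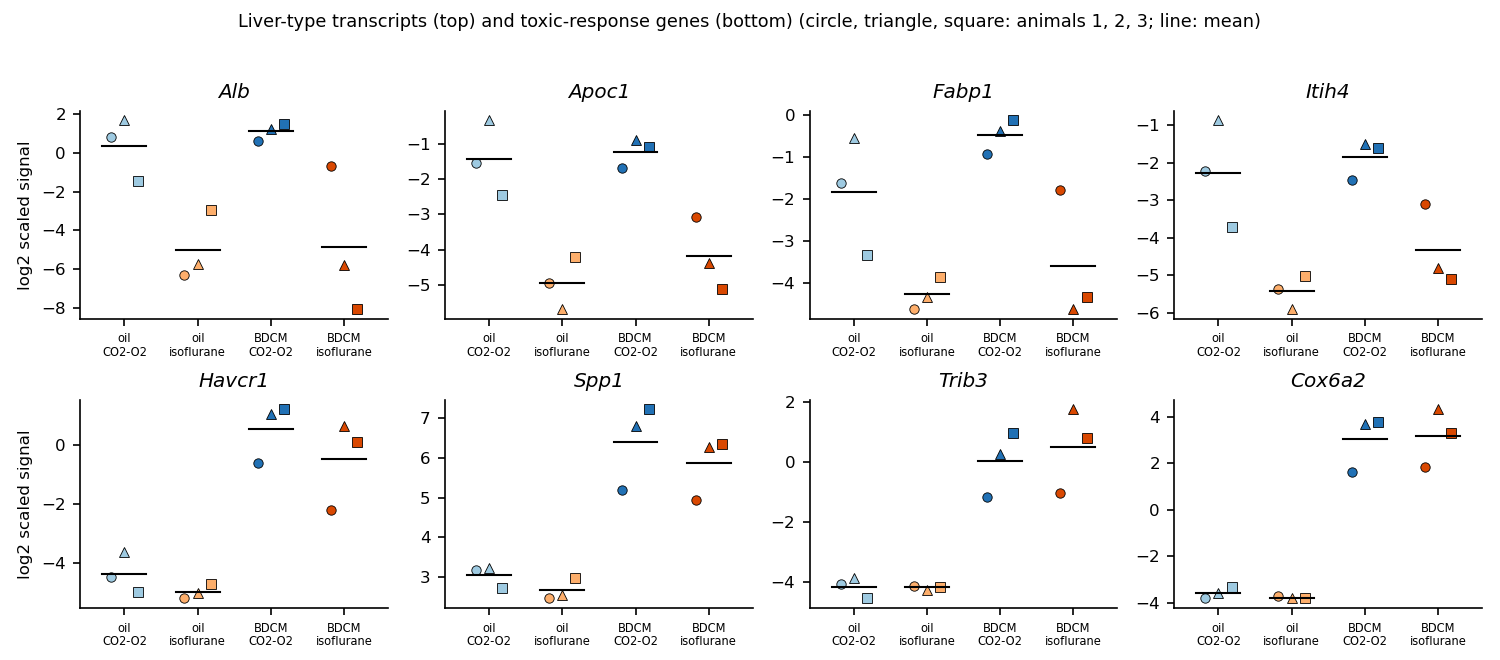
Log2 scaled signal of 4 transcripts abundant in liver (top) and 4 genes of the toxic response (bottom) in the 12 animals, by group, with animals 1, 2 and 3 as circle, triangle and square and the group mean as a line. Alb is highest in isoflurane BDCM animal 1 of the isoflurane animals, and Havcr1, Spp1, Trib3 and Cox6a2 overlap between the 2 BDCM groups, with animal 1 lowest in each.

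Havcr1, Spp1, Trib3 and Cox6a2, which are far higher in BDCM than in oil animals, were not called between the experiments. Havcr1 (Kim-1), a receptor that injured proximal tubule cells put on their surface, read -0.63, 1.04 and 1.20 with CO2-O2 and -2.22, 0.64 and 0.09 with isoflurane. The oil groups had means of -4.36 and -4.97. The treated groups overlapped, and the difference was -1.03 (95% interval -2.62 to 0.56, adjusted p = 0.346). Spp1 (osteopontin) read 5.2, 6.8 and 7.23 with CO2-O2 and 4.95, 6.27 and 6.36 with isoflurane, a difference of -0.55 (-1.67 to 0.58, adjusted p = 0.489). Trib3, a pseudokinase of the amino acid response, read -1.17, 0.28 and 0.96 with CO2-O2 and -1.03, 1.76 and 0.81 with isoflurane. Its difference was 0.49 (-0.98 to 1.97), but -0.11 without CO2-O2 animal 1 and -0.13 without isoflurane animal 2. Cox6a2, a subunit of cytochrome c oxidase usually found in muscle, read 1.64, 3.70 and 3.78 with CO2-O2 and 1.86, 4.31 and 3.32 with isoflurane, a difference of 0.12 (-1.30 to 1.54) that was -0.58 without CO2-O2 animal 1 and -0.45 without isoflurane animal 2. The oil means were 3.04 and 2.66 for Spp1, -4.16 and -4.17 for Trib3, and -3.56 and -3.77 for Cox6a2. In Havcr1, Spp1, Trib3 and Cox6a2 alike, animal 1 of each treated group stood below animals 2 and 3. These intervals are wide and do not show that the response was alike.

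Asns, Nqo1, Cyp2e1, Lcn2 and Hmox1 were not called either. Asns, asparagine synthetase, differed by 0.30 (-0.14 to 0.74), Nqo1, an Nrf2-driven quinone reductase, by 0.17 (-0.66 to 1.00) and Cyp2e1, the P450 enzyme that oxidises BDCM, by 0.41 (-0.27 to 1.09). Lcn2, an iron-binding lipocalin of injured tubule, differed by -0.71 (-1.72 to 0.31), and Hmox1, heme oxygenase, by -0.47 (-1.79 to 0.85). Of 38 genes of endoplasmic reticulum stress and the amino acid response 1 was called (Shmt2, lost without 8 of the 12 animals), with a median difference of 0.00, and of 22 p53 targets none was (limma). Among 37 Nrf2 targets 3 were higher (8.11% called, against 13.7% of named genes) and none lower, but 1 was higher and 2 lower after median scaling.

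One of those 3 was Abcc2, the apical pump that exports glutathione and glucuronide conjugates. It read 5.66, 5.99 and 5.63 with CO2-O2 and 6.67, 7.08 and 6.37 with isoflurane. The oil means were 1.58 and 1.82. Every treated isoflurane animal was above every treated CO2-O2 animal, and the gene rose by 0.95 ± 0.18, or 1.93-fold (adjusted p = 0.00839). Taldo1, an enzyme of the pentose phosphate pathway, rose by 0.40 ± 0.09 (adjusted p = 0.0132; not called after median scaling).

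Of 33 tubular injury and dedifferentiation genes 3 were called lower with isoflurane and none higher (9.09%, against 6.22% of named genes lower). Their median difference was -0.37 in BDCM animals (-0.24 without CO2-O2 animal 3 and -0.25 without isoflurane animal 1) and -0.20 in oil animals. The 3 were Prom1, Anxa1 and Cd24, which belong to regenerating or progenitor-like tubule cells as well as to normal epithelium. Prom1 (CD133) read 4.04, 3.07 and 3.19 with CO2-O2 and 2.30, 2.27 and 2.33 with isoflurane. CO2-O2 animal 1 was the highest and no animal overlapped, and Prom1 fell by 1.13 (SE 0.23, adjusted p = 0.0111). Cd24 fell by 0.39 (adjusted p = 0.0158; 0.0522 without isoflurane animal 1), and Anxa1 by 0.51 (0.0181; 0.0521 and 0.0526 without CO2-O2 animal 1 or 3).

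Along the nephron, few proximal tubule markers were called. In the proximal tubule list 2 of 53 were higher and 2 lower (7.55% called), with a median of -0.04. It was 1 higher and 4 lower after quantile normalization and 1 and 6 after median scaling, and 4 and 1 without isoflurane animal 2, where the median was 0.09. Mme (neprilysin), a peptidase of the brush border, read 3.93, 2.84 and 2.83 with CO2-O2 and 2.02, 1.57 and 2.23 with isoflurane. It fell by 1.26 (SE 0.28, adjusted p = 0.0154), without overlap. The phosphate transporter Slc34a1 rose by 0.37 ± 0.09 (adjusted p = 0.0251), but not under quantile or median scaling or with the mean of its probes, and its call ended without CO2-O2 animal 2 or 3 or isoflurane animal 1 or 3 (0.0603 to 0.0773).

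Farther down, Calb1, the calcium-binding calbindin of the connecting tubule, read 2.42, 2.32 and 2.32 with CO2-O2 and 1.80, 1.15 and 1.44 with isoflurane. The 3 CO2-O2 animals were almost level and all above the isoflurane animals, and Calb1 fell by 0.89 (SE 0.15, adjusted p = 0.00438). Kit, a receptor kinase on intercalated cells, fell by 0.61 (SE 0.11, adjusted p = 0.00747), and so did its second probe. Hsd11b2, which shields the mineralocorticoid receptor from glucocorticoids, fell by 0.57 (adjusted p = 0.0184; 0.0518 to 0.0630 without CO2-O2 animal 1 or 3 or isoflurane animal 3). Neither Umod of the thick ascending limb (-0.24, adjusted p = 0.0715) nor Aqp2 of the collecting duct (-0.01; 0.16 with the mean of its probes) was called. Umod was called after quantile or median scaling and with an intensity trend. Of 15 thick ascending limb markers none was called. In the distal convoluted and connecting tubule list 2 of 11 were lower and none higher (18.2% called, against 13.7% of named genes). Of 24 collecting duct markers 2 were higher and 2 lower (16.7%), with a median of -0.06, and none and 3 after median scaling. Of 15 inner medulla and thin limb markers 2 were higher and 1 lower (20%), with a median of 0.09.

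Among 31 acid-base genes, 4 were higher and 1 lower, a share (16.1%) near the 13.7% of named genes. After median scaling 1 was higher and 3 lower, and without isoflurane animal 1, 1 was higher and 2 lower. The higher members included, besides Car12, Slc4a9 at 0.47 and Insrr at 0.63, and both lost their call after median scaling. Slc4a9, an anion exchanger of intercalated cells, also lost it without CO2-O2 animal 3 or isoflurane animal 1 (0.0615 and 0.0646), and Insrr lost it without 10 of the 12 animals (0.0504 to 0.114). Slc9a3, the proton exchanger that reclaims bicarbonate in the proximal tubule, fell by 0.89 (adjusted p = 0.0257). Its other probes read 0.03 and 0.26, it was not called with the mean of its probes, and the call ended without CO2-O2 animal 1 or 2 (0.0624 to 0.0759).

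Of 28 glycolytic genes 7 were higher and 1 lower (28.6% called, against 13.7% of named genes). The median was 0.14 in both BDCM and oil animals. The higher members included Tpi1, Gapdh, Gpi, Eno1, Eno2 and Pdk2, and Pfkfb2 was lower. Under quantile normalization 1 stayed higher and under median scaling 3, with medians of 0.07 and 0.05. Without CO2-O2 animal 2 or isoflurane animal 1, 3 stayed higher, and without animal 3 of either treated group 4 did. Eno1 (enolase) read 7.35, 7.25 and 7.24 with CO2-O2 and 7.56, 7.59 and 7.74 with isoflurane, a rise of 0.35 ± 0.07 (adjusted p = 0.0132; not called after quantile normalization). The lysosomal glucosidase Gaa rose by 0.53 ± 0.09 (adjusted p = 0.00613).

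Of 44 mitochondrial respiratory chain genes 3 were higher and 4 lower, with a median of 0.00. That share (15.9%) was near the 13.7% of named genes. The counts were 3 higher and 9 lower after quantile normalization (median -0.11) and 1 and 7 after median scaling (median -0.09). Uqcrc1, a core subunit of complex III, read 4.98, 4.98 and 4.92 with CO2-O2 and 5.37, 5.31 and 5.27 with isoflurane, a rise of 0.36 ± 0.07 (adjusted p = 0.00740). Ndufs8 of complex I rose by 0.34 ± 0.07 (0.0126; not called after median scaling), while Ndufb8 of the same complex fell by 0.36 (0.0410), a call that ended without 8 of the 12 animals (0.0538 to 0.103). The second probe of Uqcrc1 read 0.13 and that of Ndufs8 0.14, neither called, and Ndufs8 was not called with the mean of its probes.

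Protein synthesis genes moved little. Of 75 cytosolic ribosomal protein genes 4 were higher (Rpl30, Rps19, Rpl36a and Rps27a; 5.33% called) and none lower, and the median of 0.12 became -0.01 after quantile normalization. The count of 4 was 2 without CO2-O2 animal 1 or 3 and 8 without isoflurane animal 3. Rpl30 read 6.30, 6.39 and 6.25 with CO2-O2 and 6.71, 6.91 and 6.66 with isoflurane, a rise of 0.45 ± 0.08 (adjusted p = 0.00660). Rps19 rose by 0.46 ± 0.09 (0.0111; not with the mean of its probes). In the proteasome list 2 of 32 were higher and 3 lower, a share (15.6%) near the 13.7% of named genes. The counts were 2 and 6 after quantile normalization, 0 and 6 after median scaling, and 1 and 5 without isoflurane animal 2. Psmc4, an ATPase of the base, rose by 0.30 ± 0.07 (0.0137; not after median scaling or with the mean of its probes), and Psma1, of the core ring, fell by 0.29 (SE 0.06, adjusted p = 0.0141).

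Matrix and stromal genes were called lower more often than higher. Of 27 extracellular matrix genes 5 fell (18.5%, against 6.22% of named genes lower) and none rose, with a median of -0.28, -0.27 after quantile normalization and -0.37 after median scaling. The 5 were Col14a1, Col1a1, Col3a1, Col1a2 and Mmp14. Col1a1, a chain of collagen I, read 0.97, 0.93 and 1.77 with CO2-O2 and 0.42, 0.08 and 0.30 with isoflurane. CO2-O2 animal 3 stood above the rest, and Col1a1 fell by 0.95 (SE 0.25, adjusted p = 0.0269), a call lost without it (0.0673) or without isoflurane animal 2 or 3 (0.0759 and 0.0563). Col1a2 read 3.47, 3.29 and 3.71 with CO2-O2 and 2.89, 2.55 and 3.03 with isoflurane, and fell by 0.67 (SE 0.17, adjusted p = 0.0234). It was lost without CO2-O2 animal 1 (0.0528) or 3 (0.0768) or isoflurane animal 2 (0.0664), and both collagen I chains were lost with the mean of their probes. Without CO2-O2 animal 3 or isoflurane animal 2, no gene of the list was called.

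Col14a1, a collagen that links fibrils, read -1.79, -2.37 and -1.34 with CO2-O2 and -3.01, -2.91 and -2.84 with isoflurane. The isoflurane animals lay close together below all CO2-O2 animals, and it fell by 1.09 (SE 0.28, adjusted p = 0.0270), a call lost without any of the treated animals except CO2-O2 animal 2 (0.0529 to 0.0825). In oil animals the matrix list had no call in either direction and a median of -0.06. Of 17 stromal and smooth muscle markers 4 were lower and 1 higher (29.4% called, against 13.7% of named genes), with a median of -0.39. Col1a1 is in both lists and counts among the lower calls of each, so the lists are not independent. None was lower without CO2-O2 animal 3 or isoflurane animal 2, 1 was without isoflurane animal 1, 2 without CO2-O2 animal 1, none with the mean of probes and 8 after median scaling. The higher one was Notch3, a receptor of pericytes and vascular smooth muscle, which rose by 0.44 ± 0.10 (adjusted p = 0.0146). With the mean of probes no stromal marker was lower.

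Rapid stress responses were sparse. Of 35 immediate early genes 1 was called, Klf2, which fell by 0.51 (adjusted p = 0.0203; 0.0593 to 0.0665 without CO2-O2 animal 3 or isoflurane animal 3). Fos, the first-wave transcription factor, read -3.68, -3.26 and -3.56 with CO2-O2 and -2.86, -3.11 and -2.77 with isoflurane, a difference of 0.59 (95% interval 0.04 to 1.13, adjusted p = 0.123). In oil animals its difference was 1.44 (adjusted p = 0.00649). Egr1 differed by 0.35 and Hspa1a by -0.71, neither called (Hspa1a was called without CO2-O2 animal 2, adjusted p = 0.0416). Besides Hsf2, 3 of 24 heat shock genes fell, Dnaja1, Hspa2 and Dnajb4, by 0.63, 0.56 and 0.38, and each lost its call without at least 6 of the 12 animals. The list's 4 calls were 16.7% of its members, against 6.22% of named genes lower. That count ran from 1 without animal 3 of either treated group to 8 without CO2-O2 animal 2. No glucocorticoid-induced gene of 23 was called, with a median of -0.33, and Hif1a fell by 0.39 (SE 0.08, adjusted p = 0.0111), as did both its other probes.

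Clock and cell cycle genes gave few calls. Per3 was the only one of 17 clock genes called, higher by 0.50 (adjusted p = 0.0167), but it was -0.165 with the mean of its probes, and not called without CO2-O2 animal 3 or isoflurane animal 1 (0.0542 to 0.0549). Per1 (-0.23; 0.145 with the mean of its probes), Dbp (0.09) and Bmal1 (-0.08) were not called. Of 38 cell cycle genes 2 fell, Cdk2 by 0.44 (SE 0.09, adjusted p = 0.0124) and the replication clamp Pcna by 0.45 (0.0405), a call lost without 10 of the 12 animals (0.0550 to 0.122). Their list had a median of -0.31, which was 0.02 without CO2-O2 animal 3 and -0.59 without CO2-O2 animal 1.

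For the targets of the anaesthetic, 14 of 29 GABA-A receptor and two-pore potassium channel genes were tested. Of these 1 was higher and 1 lower, a share (14.3%) near the 13.7% of named genes. Gabrq, the theta subunit of the GABA-A receptor, read -0.40, -0.69 and -0.44 with CO2-O2 and 0.18, -0.15 and 0.11 with isoflurane. It rose by 0.56 ± 0.11 (adjusted p = 0.00999), as did its second probe, and in oil animals by 0.71. Kcnk1, a two-pore channel, fell by 0.43 (adjusted p = 0.0190; lost without animal 1 or 3 of either treated group, 0.0530 to 0.0575). In a separate list of adrenal markers 2 of 11 were higher and 1 lower (27.3% called), with a median of 0.07. Their summed signal ran from 24.97 to 30.23 with CO2-O2 and from 24.81 to 28.79 with isoflurane. The 2 higher were Th and Pnmt. Th, the enzyme that starts catecholamine synthesis, rose by 0.72 ± 0.14 (adjusted p = 0.00970), but was not called with the mean of its probes. Pnmt, which makes adrenaline, rose by 0.51 (adjusted p = 0.0180, and 0.0543 without isoflurane animal 1).

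Of 32 leukocyte markers 1 was called (Cd3d, higher by 0.38, lost without CO2-O2 animal 1 or 2 or isoflurane animal 1, 0.0606 to 0.0721), and their summed signal ran from 131 to 185 with CO2-O2 and from 120 to 148 with isoflurane. Of 29 inflammatory cytokine and NF-kB genes 2 were higher and none lower (6.9% called, against 13.7% of named genes). Their median was -0.22, with 19 of 29 negative. Nos2, the inducible nitric oxide synthase and 1 of those 2, rose by 0.79 ± 0.15 (adjusted p = 0.00702), but was not called with the mean of probes. Erythroid and platelet genes had a median of -0.57, the lowest of the lists after hepatocytes, with 12 of 15 negative. The median was -0.72 after quantile normalization and -0.31 with the mean of probes or without CO2-O2 animal 1. They summed to between 567 and 806 with CO2-O2 and between 298 and 632 with isoflurane. Only the globin Hbb-bs was called with all animals, lower by 1.02 (adjusted p = 0.0476), and it lost the call without 10 of the 12 animals (0.0510 to 0.128). Without isoflurane animal 1, 5 of the 15 were called lower. Adipocyte markers had 1 call of 14, Fabp4, lower by 2.70 and lost without any treated animal except isoflurane animal 3 (0.0584 to 0.0881), and skeletal muscle markers had none of 12. In whole tissue, fewer cells of a type and less RNA per cell cannot be told apart.

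**Figure D4:**
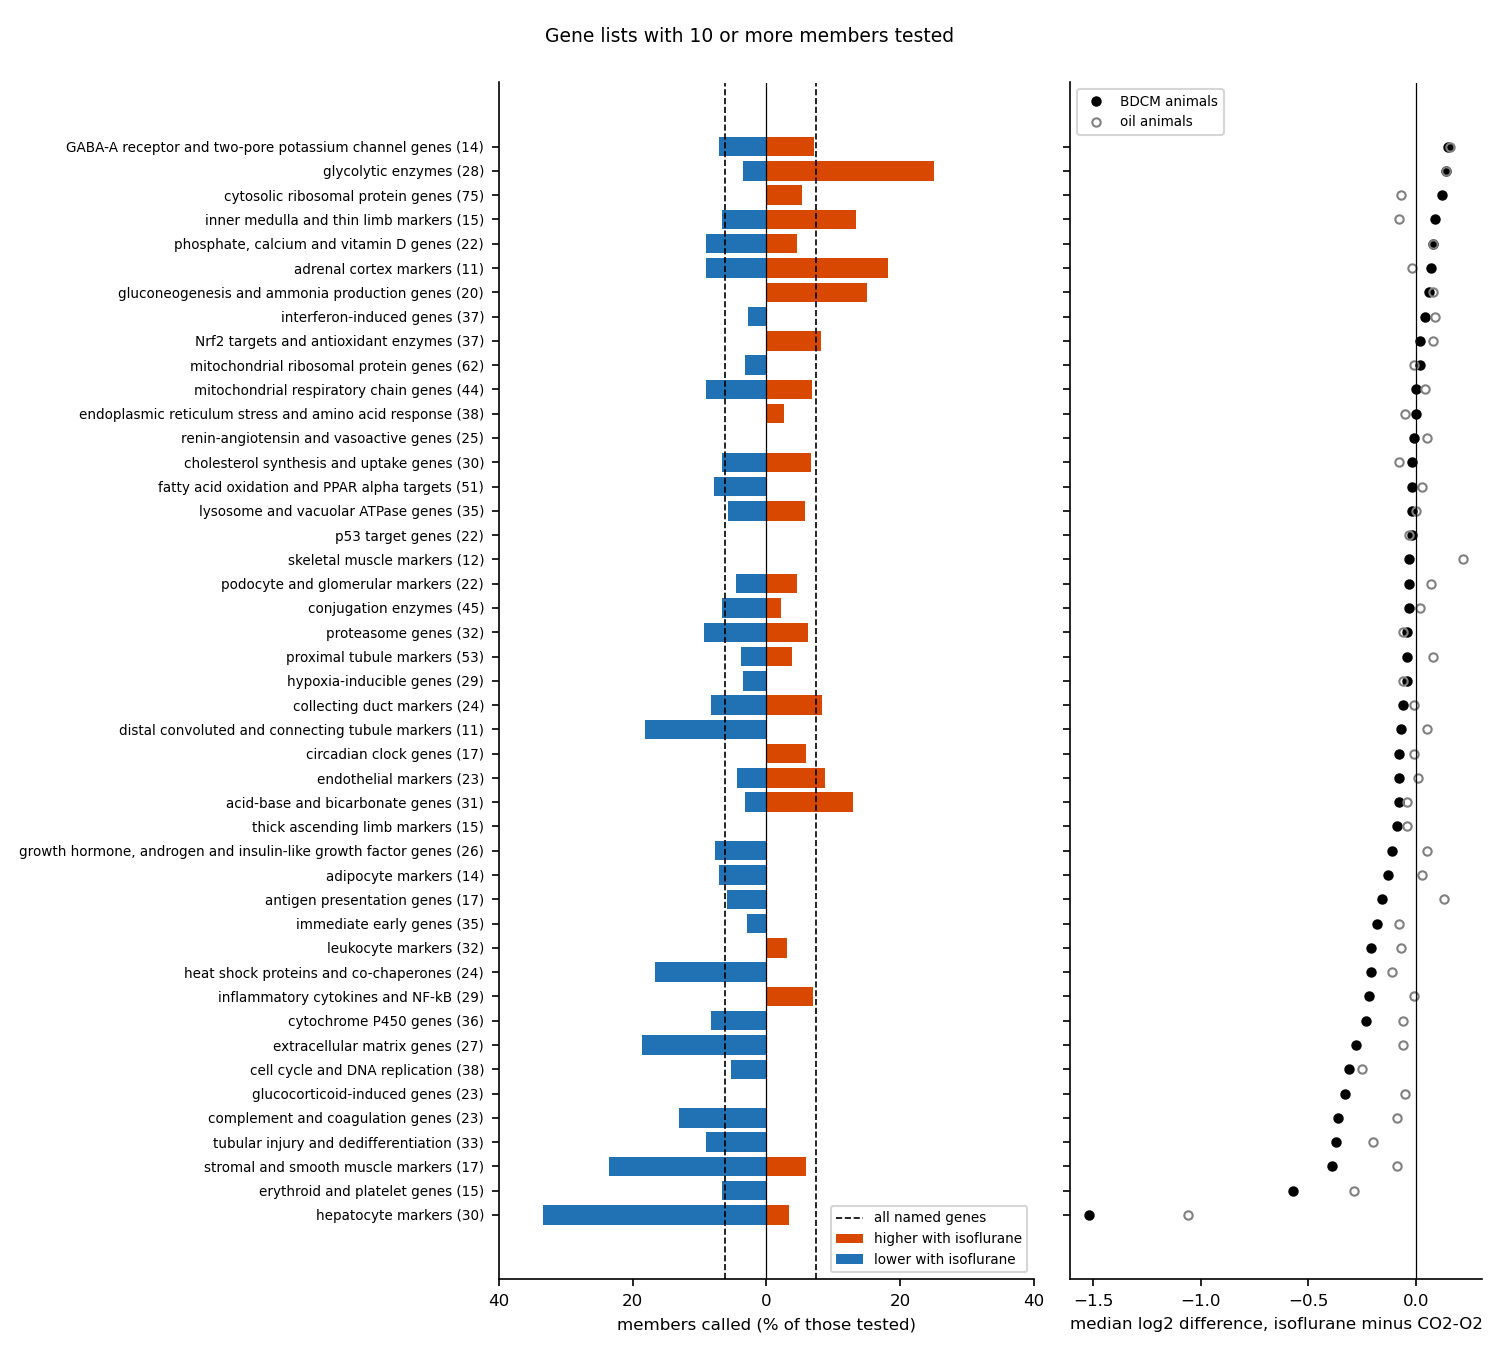
Left, percentage of tested members of each gene list called higher (orange) or lower (blue) with isoflurane in BDCM animals, with dashed lines at 7.48 and 6.22%, the shares of all named genes, and the number tested in brackets. Right, median log2 difference of each list in BDCM animals (filled) and in oil animals (open). Hepatocyte markers lie lowest in both, at -1.52 and -1.06, and the other BDCM medians run from -0.57 to 0.15.

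The same 2 experiments were compared in rats given oil, in arrays that the BDCM comparison does not share. There 1062 named genes were called (8.70%), 559 higher with isoflurane (4.58%) and 503 lower (4.12%). Over all features 3795 were called there, and between 1630 and 2440 without any 1 of the 6 oil animals. Fitted from its own 6 arrays alone, the oil comparison called 4520 features and the BDCM comparison 973. With array weights they called 6599 and 4497. Which comparison called more features thus depended on the fit. Of the 913 genes higher in BDCM animals 385 were also higher in oil animals, which is 42.2% of the first list and 68.9% of the second. Of the 759 lower in BDCM animals 331 were lower in oil animals, 43.6 and 65.8% of the lists, and no named gene was called in opposite directions. A positive oil difference was found for 97.6% of the genes higher in BDCM animals, and a negative one for 95.8% of those lower.

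Values in oil animals were close to those above for Ahi1 (1.59), Car12 (0.90), Rbfox1 (2.35), Klk12 (1.71), Mmp1 (1.58), Hsf2 (-0.68), Serping1 (-0.50), Th (0.83) and Nos2 (0.73), all called there too. Alb differed by -5.33 and Apoc1 by -3.49 in oil animals. Other genes were not called in oil animals, with differences of 0.35 for Sgpp2, 0.02 for Col1a2, 0.06 for Col14a1 and 0.25 for Abcc2. Il12rb1 and Ugt2b1 were below background on all oil arrays, so they have no measured difference there. The test of the difference between the treated and the oil comparison called no feature after adjustment (lowest adjusted p 0.537, limma), and 1731 of 34218 (5.06%) had an unadjusted p under 0.05. It called 1 feature without CO2-O2 animal 1, isoflurane animal 2 or oil CO2-O2 animal 3, and 11 with the slide as a fixed block. Only slides 1 and 4 held treated and oil arrays, so the fixed block rests on single arrays: treated CO2-O2 animal 2 and oil isoflurane animal 3. The difference of differences for Sgpp2 was 1.92 (95% interval 0.92 to 2.91), for Prom1 -0.86 (-1.60 to -0.13), for Abcc2 0.70 (0.13 to 1.27), for Col1a2 -0.69 (-1.21 to -0.17) and for Calb1 -0.56 (-1.02 to -0.11), each with an adjusted p of 0.935. For Ahi1 and Car12 the intervals were -0.41 to 0.18 and -0.38 to 0.39. So no gene was shown to differ between the experiments more in BDCM animals than in oil animals. Among the named genes 475 (3.89%) had an unadjusted p under 0.05.

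**Figure D5:**
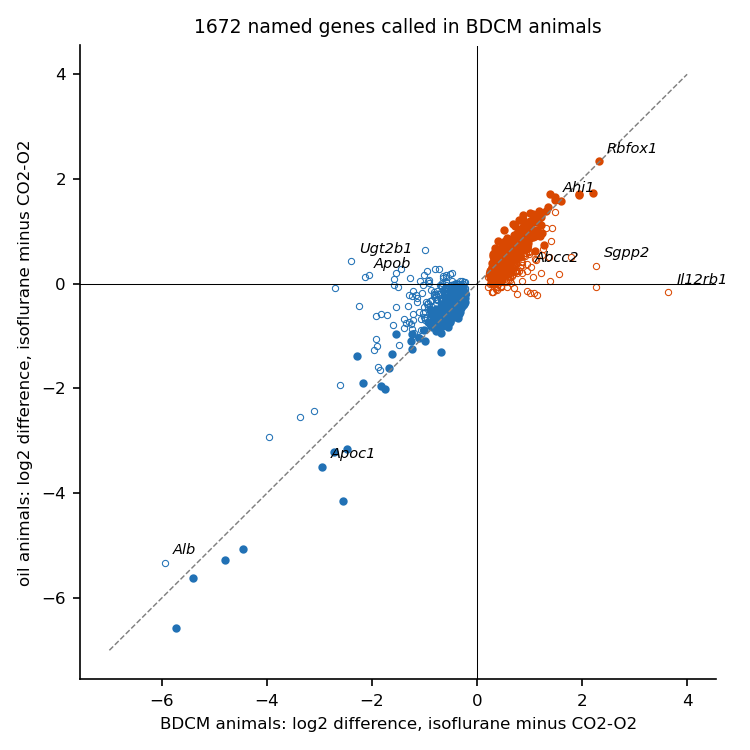
Log2 difference between the experiments in BDCM animals (x axis) and in oil animals (y axis) for the 1672 named genes called in BDCM animals, with filled points for genes called in oil animals too and a dashed line of equal differences. No gene is filled at the upper left or lower right, and Il12rb1, Sgpp2, Ugt2b1, Apob and Abcc2 lie between -0.17 and 0.44 on the y axis, where Il12rb1 and Ugt2b1 were below background.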

How the data were processed

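Total RNA of renal cortex was labelled with Cy3 and hybridised to 1-colour Agilent arrays, 1 per rat. The deposited scanner files hold spot intensity from Agilent Feature Extraction 10.7 (10.7.1.1 per the file headers), background-subtracted and detrended within each array by the authors' software and not scaled between arrays. The authors' value table gives, as a ratio, each processed signal over its array's 75th percentile, with column medians of 0.0999 to 0.112. Each isoflurane column of it matches its own scanner file, while each CO2-O2 column matches another animal of the same group. Animal numbers here follow the scanner files, and group means are not affected.

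The log2 processed signal minus the array's 75th percentile over non-control probes was computed, 115 outlier spots were set missing, and a probe was kept where every array of some group had it well above background. A gene was represented by its brightest probe. Symbols came from a RefSeq table of GRCr8, which named 27460 of 61657 probes. limma 3.58.1 in R 4.3.3 fitted 1 mean per group over 12 arrays, with Benjamini and Hochberg adjustment, and was tested on simulated data. A fold of a probe below background on all arrays of a group is a bound against the lowest signal above background on each array.

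The text names, among called genes whose groups do not overlap, the 15 largest differences per direction, up to 5 called members of each of 46 lists, well known members of lists with few calls, and a set of known genes. Apob, Plg, Gapdh, Gpi, Tpi1, Serpinc1 and Tf were added after their values were seen. Some genes that the rule picks are not reported here. Members and lists were chosen with earlier results of these data known. Alternatives were quantile normalization, median scaling, normexp (on median signals, offset 50), the value table, other probe rules and filters, array weights, an intensity trend, slide and replicate blocks, stricter thresholds, the 6 treated arrays alone and each animal left out.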

Additional observations from a re-analysis of the deposited data

How the results depend on the processing

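The BDCM comparison called 5847 features. It called 3878 with no filter on dim probes, 1774 at an adjusted p of 0.01, 541 at 2-fold and 973 from the 6 treated arrays alone, and from 3635 to 5236 with 1 animal left out. The oil comparison called 3795, and 6599 with array weights, where the BDCM comparison called 4497. From the 6 oil arrays alone the oil comparison called 4520. It called 1120 at an adjusted p of 0.01, 450 at 2-fold, and from 1630 to 4210 with 1 animal left out. The test of the difference between them called 0, but 11 with the slide as a fixed block (10 probes without a symbol and Ampd1), and from 0 to 1 with 1 animal left out. The 11 hang on treated CO2-O2 animal 2 and oil isoflurane animal 3, each alone of its group on a slide with both treatments. Of the 128 called genes that the naming rule picked, 16 were called from the 6 treated arrays, 75 with array weights, and from 56 to 101 with 1 animal left out. Calls over the gene lists were 118, and from 57 to 100 with 1 of the 6 treated animals left out. The sign turned under at least 1 setting for 9 of 147 named gene differences. It turned with the mean of probes for the called genes Calca (-0.189) and Per3 (-0.165). The other 7 were not called: Aqp2 (0.158 with the mean of probes), Per1 (0.145 likewise), Trib3 (-0.107 without CO2-O2 animal 1, -0.132 without isoflurane animal 2), Cox6a2 (-0.58 and -0.453 without these animals, -0.144 with array weights, and up to 0.775 with 1 left out), Bmal1, Dbp and Nqo1. List medians were computed only under quantile normalization, median scaling, the mean of probes and without each of the 6 treated animals. Their sign turned for 22 of 46 lists. Among them were cytosolic ribosomal protein genes (-0.01 after quantile normalization) and, with 1 treated animal left out, cell cycle genes (from -0.31 to 0.02) and proximal tubule markers (from -0.04 to 0.09). The cause was not tested.

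Same-numbered animals of the treated groups had correlated deviations of 0.23, 0.11 and -0.03, so the numbers do not pair them. With the replicate block 5268 features were called in BDCM animals and 3255 in oil animals, and 1333 of the 1672 named genes kept their call. With 3 arrays per group, signals near background carry the least precision.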

Other observations

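Probes of the same gene did not always give the same call. Of 897 called genes with a second tested probe, that probe had the same sign in 683 (76.1%), was called in the same direction in 235 (26.2%) and was called in the opposite direction in 24. Among 5458 genes that were not called, the second probe was called in 613 (11.2%). Features without a symbol were called in 4175 of 22010 cases (19.0%), against 13.7% of named genes.

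Some lists not described above held calls in both directions, which the scaling changed. Calls made up 13.3% of the cholesterol, 13% of the endothelial and 11.4% of the lysosomal list, against 13.7% of named genes. Of 30 cholesterol genes Acaca and Mvk were higher and Hmgcs1 and Msmo1 lower, but none was higher and 5 were lower after median scaling. Of 23 endothelial markers Cdh5 and Flt1 were higher and Klf2 lower, but none was higher and 3 were lower after median scaling, and none was called without CO2-O2 animal 3. Of 35 lysosomal genes Gaa and Tfeb were higher and Gla and Atp6v1h lower, against 1 higher and 4 lower after median scaling.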
